A study of Mus musculus with 5 samples.

Results

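Cytochrome P450 (Cyp) genes were examined for regions bound by macroH2A1.2-GFP in 3T3-L1 cells before and after adipocyte differentiation. The members were the 93 autosomal protein-coding genes of GENCODE M21 whose symbol is Cyp followed by a number, a letter and a number, out of 20807 autosomal protein-coding genes. They lie on 14 chromosomes, and no symbol of this form is on X or Y. Genes whose bodies were under 500 kb apart were joined, which gave 67 genes in 8 tandem clusters of 3 or more, 4 genes in 2 pairs and 22 single genes. The locus of a gene was its body plus 10 kb on each side, and the 93 loci together covered 4.20 Mb of mm10.

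The 3T3-L1 line consists of mouse fibroblasts that turn into adipocytes when induced with hormones. All 4 immunoprecipitated samples came from cells transduced with a lentivirus for stable expression of macroH2A1.2 fused to GFP, and all were precipitated with an anti-GFP antibody. The 2 replicates of pre-adipocytes are labelled as taken before differentiation and the 2 replicates of mature adipocytes as taken after it. Per the labels, the cells were induced 2 days post-confluence for 60 h with IBMX at 500 µM, dexamethasone at 0.25 µM and insulin at 10 µg/ml, and were then kept in medium with insulin but neither of the other agents. A library titled as made without antibody was the control, and neither untransduced cells nor endogenous macroH2A1 was profiled in the files used here, so that the regions are those of the overexpressed fusion protein. Groups rest on the sample titles. The description fields of both mature samples name the state before differentiation. The control's own description mentions undifferentiated cells with GFP and an anti-GFP antibody. The title and the antibody field of the control both give no antibody, and every fold over control rests on those fields. Adipose tissue of mice is given as the ChIP material in the study's methods, and the cell line in the labels. Nothing in the tables marks the cell type or the degree of differentiation, so that neither label could be checked against marker genes. The methods call the cells stable clones without giving their number, and the study calls the samples biological duplicates without saying how the cultures were separated, so that p-values measure the spread between these samples.

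Cytochrome P450 enzymes are heme proteins that insert oxygen into lipophilic substrates. Members of families 1, 2, 3 and most of 4 oxidize drugs, pollutants and fatty acids, and in mice many of them are encoded by large tandem clusters of similar copies expressed chiefly in liver, kidney, lung or gut. Other members are mostly encoded by single genes and build or break down steroids, bile acids, vitamin D and retinoic acid. MacroH2A1 is a histone variant with a large C-terminal macrodomain that replaces H2A in part of the chromatin and forms broad domains. The enriched regions below were called by the authors with SICER, which merges enriched windows that lie close together and so suits broad domains.

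The 4 samples had 36468, 38546, 59375 and 61196 regions, of which 49, 48, 60 and 84 lay at Cyp loci. The immunoprecipitated libraries were 1.20, 0.549, 1.23 and 1.21 times the size of the control library, in the order pre-adipocyte replicates 1 and 2 and mature adipocyte replicates 1 and 2, which is the order of every list of 4 values. Pre-adipocyte replicate 2 was thus the shallowest library, and its median region at a Cyp locus was 2500 bp long and held 47.5 reads, against 3300 to 5000 bp and 116 to 168 reads in the other 3 samples. A locus without a region is one where no region was listed at a false discovery rate (FDR) of up to 0.001, and a lower level of macroH2A1.2 there is not excluded. Reads given for a gene are the sum over every region touching its locus, each counted over its whole length. A region that touches several loci counts for each of those genes. Where a list of reads gives 0, no region was listed. In bulk samples such as these, more cells with macroH2A1.2 at a locus and more of it per cell cannot be told apart.

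MacroH2A1.2 regions were listed at a minority of Cyp loci, and about as often in pre-adipocytes as in mature adipocytes. A region lay at 25, 25, 25 and 32 of the 93 loci, a mean of 25 ± 0 for pre-adipocytes against 28.5 ± 4.95 for mature adipocytes (SD, n = 2 each). The exact permutation test gave a two-sided p = 1, in a design of 2 against 2 samples whose smallest possible p is 0.333. The mature samples overlapped the pre-adipocyte samples, since mature replicate 1 had the same count as both of them. Over all autosomal protein-coding genes the share with a region was 35.0%, 30.3%, 41.4% and 41.6%, against 26.9%, 26.9%, 26.9% and 34.4% of the Cyp genes.

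Regions covered 7.29%, 3.39%, 6.40% and 7.44% of the bases in Cyp loci. The mean was 5.34% ± 2.76 for pre-adipocytes against 6.92% ± 0.733 for mature adipocytes (SD, n = 2 each; exact permutation p = 0.667, two-sided), and pre-adipocyte replicate 1 lay between both mature samples. Without pre-adipocyte replicate 2, the shallow library, the difference changed sign, from 1.58 to -0.365 percentage points. The loci of all autosomal protein-coding genes were covered to 8.48%, 3.94%, 8.83% and 8.54%. In the gene bodies themselves, Cyp genes were covered to 7.16%, 2.69%, 6.24% and 6.66% and all genes to 7.26%, 3.41%, 7.77% and 7.54%. In the 10 kb upstream of the start the values were 7.52%, 4.44%, 6.59% and 9.44% for Cyp genes and 12.4%, 5.64%, 11.8% and 11.3% for all genes.

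Within the regions, enrichment at Cyp loci was near that of all regions. Both values are conditional on a region being called at the same FDR limit, which restricts how far they can differ. They describe no locus without a region. Immunoprecipitated reads exceeded the scaled control reads 1.62-, 2.01-, 1.79- and 1.86-fold at Cyp loci and 1.58-, 1.92-, 1.73- and 1.75-fold over all autosomal regions. On the log2 scale the mean at Cyp loci was 0.85 ± 0.22 for pre-adipocytes against 0.87 ± 0.04 for mature adipocytes (SD, n = 2 each; exact permutation p = 1, two-sided). The highest fold belonged to the shallow pre-adipocyte replicate 2, and the part of depth in it was not tested. Control reads in the regions at Cyp loci were 17.4 to 18.6 per kb, against 18.5 to 19.3 per kb over all regions.

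Of the 93 Cyp genes, 55 (59.1%) had no region in any sample, against 46.3% of all genes. Narrowing the locus to the gene body brought both shares closer, to 72.0% and 68.9%. A region in all 4 samples was found at 16 Cyp loci (17.2%), against 21.1% of all loci. The remaining 22 members had regions in 1 to 3 samples. By kind of locus, 49 of the 67 clustered genes had no region, against 6 of the 22 single genes and none of the 4 paired genes. Loci in clusters were covered to 4.04%, 2.03%, 3.45% and 3.93%, those of single genes to 14.6%, 6.15%, 13.0% and 15.2%, and those of pairs to 27.9%, 16.0%, 25.8% and 31.4%. The kinds rest on the joining distance of 500 kb. At 100 kb there were 54 genes in 9 clusters, 7 pairs and 25 single genes, and empty genes were not counted by kind there.

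**Figure D1:**
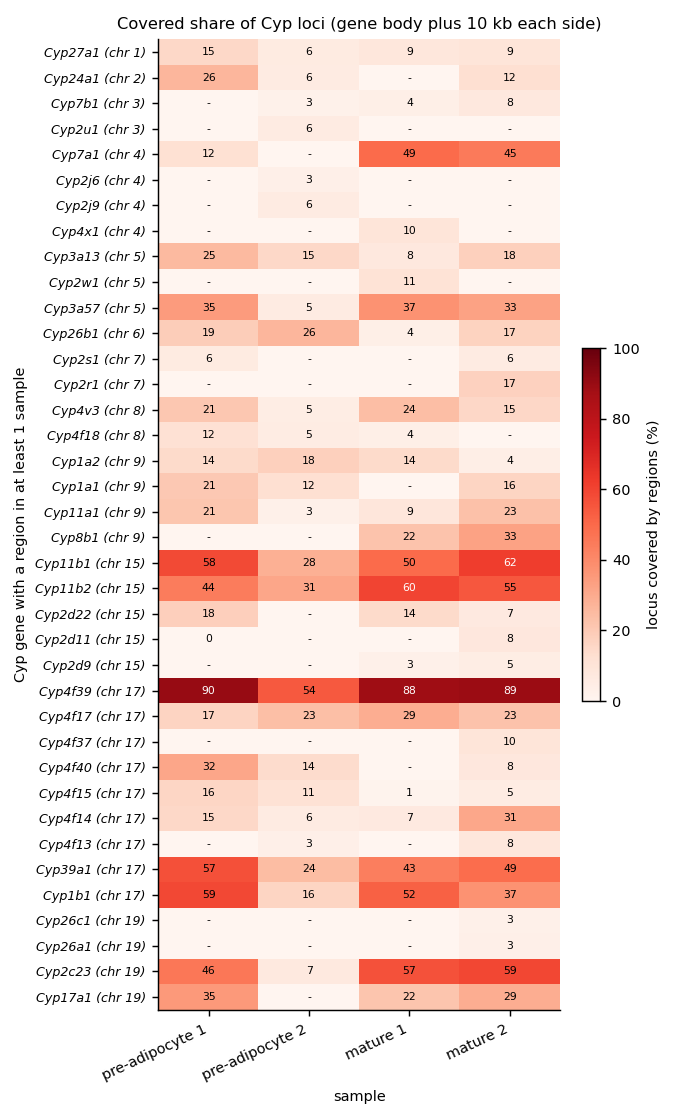
Percent of the locus (gene body plus 10 kb on each side) covered by macroH2A1.2 regions for the 38 Cyp genes with a region in at least 1 sample (rows, in chromosome order) in the 4 samples (columns); a dash marks no region and a 0 a share under 0.5%. Cyp4f39 is the most covered locus, with 90.1%, 54.3%, 88.4% and 89.4%.

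The most covered locus was that of Cyp4f39, an omega-hydroxylase gene of very long fatty acids in skin, at the head of the Cyp4f cluster on chromosome 17. Its promoter was also the one member promoter under a region in 3 samples. The 250 bases upstream of the RefSeq start (GRCm38.p6) are printed for Cyp4f39, whose window (chr17:32452473-32452722, plus strand) lay under a region in every sample but pre-adipocyte replicate 2, and for 3 members discussed further on. These are Cyp1a1 (chr9:57697363-57697612, plus strand), which lay under a region in pre-adipocyte replicate 1 alone, Cyp1b1 (chr17:79715062-79715311, minus strand), which lay under no region and had regions upstream in every sample, and Cyp8b1 (chr9:121916306-121916555, minus strand), with regions on both sides in mature adipocytes and none over the window. Capitals mark GCGTG, the core of the xenobiotic response element bound by the aryl hydrocarbon receptor with ARNT, or the TATA box letters TATAAA, each on either strand.
Cyp4f39: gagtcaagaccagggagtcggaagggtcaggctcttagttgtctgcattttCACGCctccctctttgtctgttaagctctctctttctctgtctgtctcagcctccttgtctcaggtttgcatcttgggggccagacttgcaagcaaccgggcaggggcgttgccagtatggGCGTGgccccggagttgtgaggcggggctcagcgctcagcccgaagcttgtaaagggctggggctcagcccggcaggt
Cyp1a1: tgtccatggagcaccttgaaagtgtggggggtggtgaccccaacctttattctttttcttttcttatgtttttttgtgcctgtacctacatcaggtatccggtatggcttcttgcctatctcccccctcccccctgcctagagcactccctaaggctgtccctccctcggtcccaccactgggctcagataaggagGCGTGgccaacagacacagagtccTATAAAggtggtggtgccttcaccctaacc
Cyp1b1: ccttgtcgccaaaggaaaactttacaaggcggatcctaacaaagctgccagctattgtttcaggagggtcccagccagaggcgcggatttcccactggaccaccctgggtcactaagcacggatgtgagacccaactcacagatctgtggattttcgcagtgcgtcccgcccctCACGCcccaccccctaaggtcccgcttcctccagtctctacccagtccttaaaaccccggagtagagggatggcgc
Cyp8b1: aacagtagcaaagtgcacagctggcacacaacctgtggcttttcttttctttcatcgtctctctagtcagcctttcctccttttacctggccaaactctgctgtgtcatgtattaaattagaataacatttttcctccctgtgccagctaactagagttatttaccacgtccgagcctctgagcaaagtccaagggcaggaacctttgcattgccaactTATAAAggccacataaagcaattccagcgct
None of the 4 windows touched an annotated exon.

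RefSeq windows were found for 72 of the 93 members (82 windows, since some genes have several starts) and 21 members had none. GCGTG stood in 15 of the 82 windows (18.3%), against 28.2% of the 32851 windows of all genes, and these 15 belonged to 14 members, among them Cyp1a1, Cyp1b1, Cyp4f39 and Cyp2b10. TATAAA stood in 28 windows (34.1%), against 12.4% of all. A direct repeat of the nuclear receptor half-site AGGTCA with 1 base between the copies stood in no member window and in 0.0335% of all windows. GCGTG and TATAAA share no letters at their ends and cannot overlap. Regions touched 13 windows of 9 members in at least 1 sample. These letters describe the windows and were not tested as binding sites.

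Over the annotated GENCODE start, 11 Cyp genes (11.8%) had a region in at least 1 sample, against 11.7% of all genes. No Cyp gene had a region over its start in all 4 samples, against 0.639% of all genes. The number of starts under a region was 5, 3, 3 and 4, or 5.38%, 3.23%, 3.23% and 4.30% of the Cyp genes, against 6.14%, 2.30%, 5.78% and 5.43% of all genes. Cyp4f39 had its start covered in 3 samples. Cyp7a1 had it covered in both mature samples and in no pre-adipocyte sample, and Cyp11b1 in both pre-adipocyte samples and in no mature sample. The start of Cyp11b1 is at 74841643, and a region of mature replicate 1 began at 74841801, less than a SICER window of 200 bp away. In mature replicate 2 regions ended at 74840600 and began again at 74842801. The share of all genes with either pattern at the start was not computed, so that these 2 genes are described only. Cyp27a1, Cyp26b1, Cyp1a1, Cyp11a1, Cyp4f17, Cyp4f40, Cyp4f14 and Cyp17a1 had it covered in 1 sample each.

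The Cyp2c cluster held no region. Its 14 genes, from Cyp2c55 to Cyp2c70 on chromosome 19 (39007019 to 40187333), encode liver and gut enzymes that metabolize drugs and arachidonic acid. The 1180 kb from the first to the last gene and the 10 kb beyond each end were covered to 0% in all 4 samples. The 500 kb on each side of the same run were covered to 29.7%, 17.1%, 30.0% and 30.3%. The nearest regions ended 171, 177, 171 and 76.2 kb before the first gene and began 83.5, 88.9, 84.9 and 66.7 kb after the last. The 15th Cyp2c gene, Cyp2c23, which encodes a renal epoxygenase of arachidonic acid, stands alone on the same chromosome (44005022 to 44029208, minus strand) and had regions in every sample. It held 713, 77, 1004 and 1037 reads, and was covered to 45.7%, 7.24%, 56.5% and 59.2%, higher in both mature samples than in either pre-adipocyte sample.

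**Figure D2:**
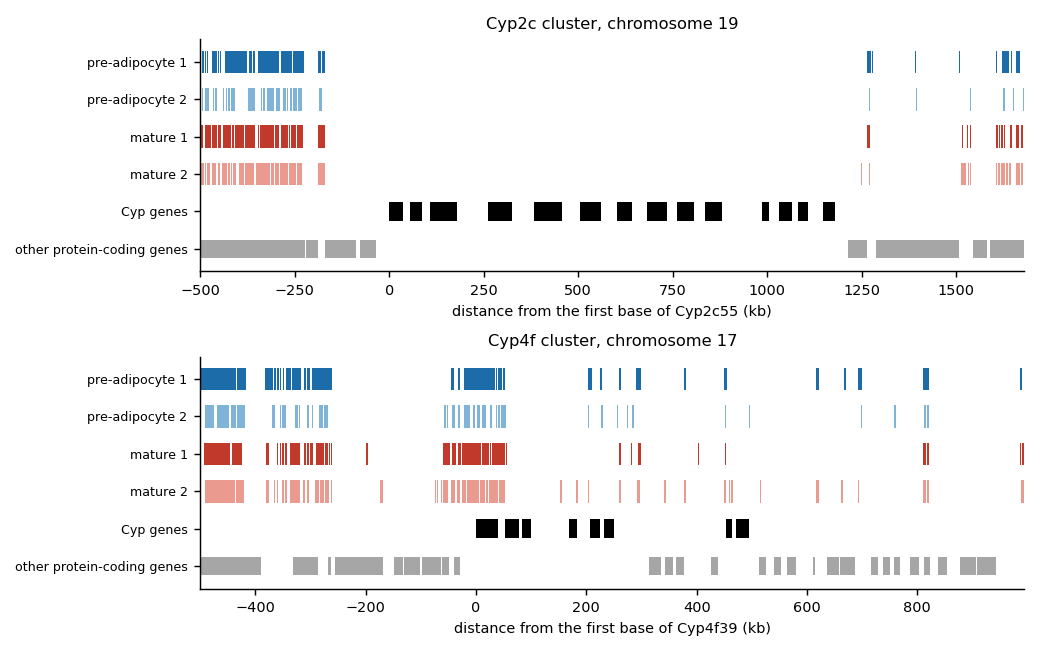
Regions of each sample (coloured bars, 1 row per sample) around the Cyp2c cluster (top) and the Cyp4f cluster (bottom), with Cyp genes in black and other protein-coding genes in grey; the x axis is the distance in kb from the first base of Cyp2c55 or Cyp4f39. No region lies among the 14 Cyp2c genes, while the first Cyp4f gene, Cyp4f39, lies under regions in all 4 samples.

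Tandem copies are alike in sequence and the authors kept uniquely mapping reads only, so the likeness of the members was measured. Of the distinct 50-base words in the annotated transcripts of a Cyp gene, a median of 10.7% also occurred in transcripts of another gene for the 55 members without a region and 1.35% for the 38 members with one. The median was 20.1% in the Cyp2c cluster, with 60.3% for Cyp2c40 as the highest. Cyp2c55 (1.13%) and Cyp2c70 (0%), at the ends of the same cluster, shared few or none of their words and also had no region. The Cyp2j genes, with a median of 0.587%, were nearly as empty. Words in introns were not counted, and the part of unmappable reads in the absence of regions was not tested.

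The clusters of Cyp2 genes on chromosome 7 and of Cyp2j and Cyp4a genes on chromosome 4 were close to empty too. The Cyp2a/2b/2f/2g/2s/2t cluster on chromosome 7 (25802475 to 27158668, 13 genes), which holds genes for xenobiotic enzymes such as the phenobarbital-inducible Cyp2b10, had regions at 1 gene, Cyp2s1. There 138 immunoprecipitated reads were counted in pre-adipocyte replicate 1 and 65 in mature replicate 2, and none of the 12 other loci had a region. The 500 kb on each side of that cluster were also almost bare, at 0%, 0%, 0.18% and 0.24%.

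The Cyp2j cluster on chromosome 4 (96027534 to 96664154, 8 genes), whose products are epoxygenases of fatty acids, had a single region, in pre-adipocyte replicate 2 with 49 reads. It lay in the loci of both Cyp2j6 and Cyp2j9. The cluster of Cyp4x1, the Cyp4a genes and Cyp4b1 on chromosome 4 (115106323 to 115647723, 7 genes) had regions at Cyp4x1 alone, in mature replicate 1, with 148 reads in 2 regions. Cyp4b1 and the 5 Cyp4a genes, targets of the nuclear receptor PPAR-alpha that omega-hydroxylate fatty acids, had none in any sample. The flanks of both clusters were sparse as well, unlike those of the Cyp2c cluster. The 500 kb on each side were covered to 2.08%, 1%, 2.57% and 3.76% for the Cyp2j cluster. For the cluster of Cyp4x1 the values were 0.24%, 0.6%, 5.12% and 4.54%.

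In the Cyp3a cluster on chromosome 5 (145345279 to 146113287, 6 genes), regions lay at Cyp3a57 alone. Its locus held 721, 74, 966 and 852 reads in 2, 2, 6 and 5 regions, and was covered to 34.7%, 5.48%, 37.2% and 32.6%. Fold over control was 1.67 (95% interval 1.47 to 1.90, exact binomial, counting error only), 2.45 (1.71 to 3.54), 2.11 (1.87 to 2.38) and 2.05 (1.81 to 2.33). The covered share of pre-adipocyte replicate 1 lay between both mature samples, and the fold of pre-adipocyte replicate 2 lay above both, so that the conditions overlapped. The other 5 genes, among them Cyp3a11, the main hepatic drug-metabolizing Cyp3a enzyme, had no region. Cyp3a13 lies apart on the same chromosome and had regions in all 4 samples, covering 25.2%, 15.2%, 7.57% and 17.7% of its locus.

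In the Cyp2d cluster on chromosome 15 (82370527 to 82794294, 8 genes) regions lay at Cyp2d22, Cyp2d11 and Cyp2d9. Cyp2d22 was covered to 18.2%, 0%, 14.1% and 6.73%. A part of the same regions reached the neighbouring Cyp2d11. Cyp2d9, which encodes a male-biased steroid 16-alpha-hydroxylase of liver, had 1 region in each mature sample, of 57 and 83 reads, and none in pre-adipocytes. Both were outside the gene body.

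**Figure D3:**
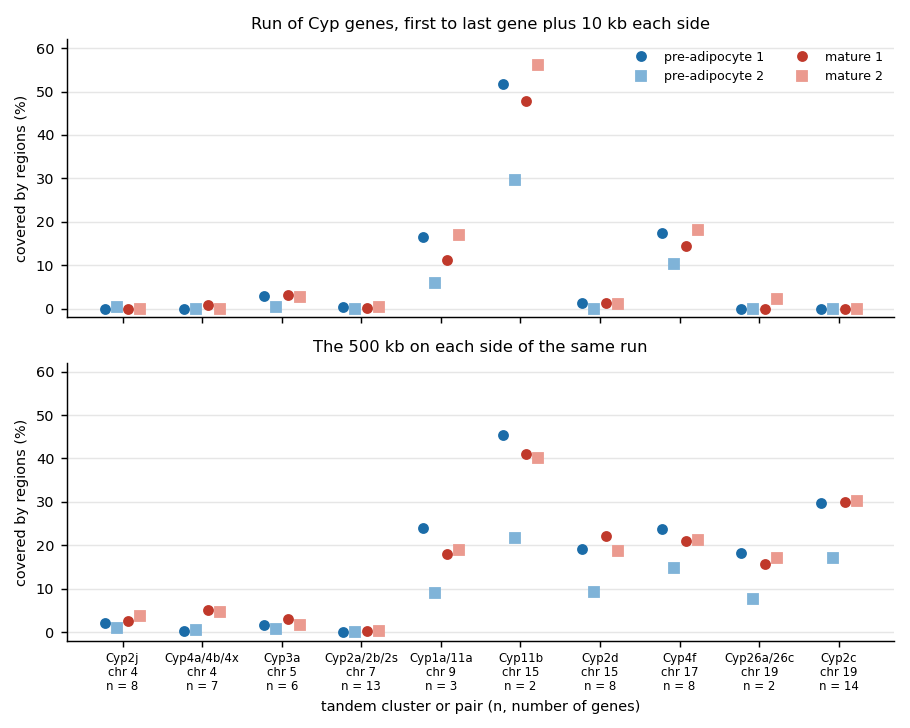
Percent covered by regions in each sample for the 8 clusters and 2 pairs (top: first to last gene plus 10 kb on each side) and for the 500 kb on each side of the same run (bottom). The Cyp2c and Cyp2d clusters lie at or near 0 while their flanks reach 30.3% and 22.1%, whereas the flanks of the Cyp2a/2b/2s cluster are as bare as the cluster.

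The Cyp4f cluster (32452723 to 32947402, 8 genes) was covered to 26.7%, 16.7%, 22.0% and 26.8% of its loci. Regions over Cyp4f39 began upstream of that gene and ended near the start of Cyp4f17, and shorter regions lay further along the cluster, at Cyp4f40, Cyp4f15 and Cyp4f14 among others. Regions touching the Cyp4f39 locus held 2669, 746, 3174 and 2609 reads, including the parts of those regions beyond the locus. Fold over control there was 1.70 (95% interval 1.59 to 1.82), 1.97 (1.77 to 2.19), 1.89 (1.77 to 2.02) and 1.90 (1.77 to 2.04). The covered share of Cyp4f39 was 72.2% ± 25.3 for pre-adipocytes against 88.9% ± 0.70 for mature adipocytes (SD, n = 2 each), and pre-adipocyte replicate 1 lay above both mature samples.

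Cyp4f17, the next gene, was covered to 16.7%, 23.5%, 28.9% and 22.6%. Further along the cluster, Cyp4f14, an omega-hydroxylase of leukotriene B4, was covered to 14.9%, 5.58%, 6.82% and 31.0%. Cyp4f40 was covered to 31.6%, 13.7%, 0% and 7.89%, and Cyp4f15 to 15.8%, 11.1%, 1.46% and 5.17%, both lower in each mature sample than in either pre-adipocyte sample. Cyp4f16 was the 1 gene of the cluster without a region. Outside the cluster, Cyp4v3, a fatty acid omega-hydroxylase gene on chromosome 8 (45304944 to 45333216, minus strand), had regions in every sample with 338, 47, 493 and 302 reads, covering 20.7%, 4.97%, 24.0% and 15.4% of its locus. Pre-adipocyte replicate 1 lay between both mature samples there.

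Cyp1a2, Cyp1a1 and Cyp11a1 lie within 350 kb on chromosome 9 (57676937 to 58027023). With a joining distance of 100 kb in place of 500 kb Cyp11a1 separates from the others. Cyp1a1 and Cyp1a2 oxidize aromatic pollutants and are induced through the aryl hydrocarbon receptor. Cyp1a1 held 223, 83, 0 and 207 reads, and its locus was covered to 20.6%, 12.3%, 0% and 16.2%. Regions touching the Cyp1a2 locus held 114, 88, 123 and 125 reads, and the locus was covered to 14.2%, 17.9%, 14.2% and 3.98%. No region touched the body of Cyp1a2 in any sample. The 114 reads of pre-adipocyte replicate 1 were those of a region over the start of Cyp1a1, and are also among the 223 reads given for Cyp1a1. Fold over control was high at Cyp1a1 in the samples with a region, at 2.47 (95% interval 1.90 to 3.26), 2.36 (1.69 to 3.33) and 2.60 (1.96 to 3.48). At Cyp1a1 the samples of the 2 conditions overlapped. At Cyp1a2 both mature samples had more reads than either pre-adipocyte sample, in counts not scaled for depth. The covered shares of pre-adipocyte replicate 1 and mature replicate 1 were equal there.

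The third member of family 1, Cyp1b1, is expressed in mesenchymal cells and metabolizes estradiol and polycyclic hydrocarbons. It is a single gene on chromosome 17 (79701537 to 79715061, minus strand) and was covered to 58.8%, 16.3%, 52.1% and 37.4%. The 500 kb on each side were covered to 60.5%, 39.8%, 57.4% and 52.7%, more than the locus in every sample. Upstream of Cyp1b1 the regions of the 4 samples merged into a stretch of 126.4 kb (79715601 to 79842000), outside any protein-coding gene. Within that stretch 122600, 90600, 104600 and 100600 bp were called. The near edge of that stretch, 0.54 kb from the start of Cyp1b1, was that of pre-adipocyte replicate 1, and the regions of the other 3 samples began 3.74, 3.34 and 3.54 kb from the start. The stretch held 5438, 1930, 4931 and 4741 reads, which is 36.9, 38.8, 38.4 and 39.1 reads per kb of called length after division by library size relative to the control. The samples of both conditions thus lay within a narrow range of density, taken over called bases only. In 3 of the 4 samples regions on the other side reached the 3' end or the body of the gene, and the start itself lay in a gap between regions in every sample.

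Of the genes of steroid synthesis, the Cyp11b pair was the most covered. Cyp11b1, the steroid 11-beta-hydroxylase, and Cyp11b2, the aldosterone synthase, lie side by side on chromosome 15 (74834125 to 74856318, minus strand). Their shared locus was covered to 51.7%, 29.7%, 47.9% and 56.2%, with 713, 231, 826 and 951 reads. Fold over control was 2.62 (95% interval 2.21 to 3.11), 2.52 (1.94 to 3.28), 2.79 (2.38 to 3.29) and 2.86 (2.43 to 3.37) at Cyp11b1. The flanking 500 kb were covered to 45.4%, 21.7%, 41.1% and 40.1%.

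Cyp11a1, the cholesterol side-chain cleavage enzyme, was covered to 21.2%, 2.95%, 8.86% and 22.7%. Cyp17a1, the 17-alpha-hydroxylase, was covered to 35.3%, 0%, 21.5% and 29.1%. Its start was under a region in pre-adipocyte replicate 1 alone, but in mature replicate 2 a region began 29 bp upstream of that start. Cyp19a1, the aromatase that makes estrogens in adipose tissue among others, and Cyp21a1, the 21-hydroxylase, had no region in any sample. As a list, 3 of these 6 genes had regions in all 4 samples, 2 had none and 1 had them in 3 samples. Over all genes 21.1% had regions in all 4 samples and 46.3% had none, and a list of 6 genes was not tested against these shares.

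Cyp7a1, a gene of bile acid synthesis, had the largest difference in mean covered share of the 93 members, 41.0 percentage points, followed by Cyp2c23 with 31.4 and Cyp8b1 with 27.4. Cyp7a1, the rate-limiting cholesterol 7-alpha-hydroxylase of bile acid synthesis (chromosome 4, 6265612 to 6275633, minus strand), held 117, 0, 512 and 467 reads, and was covered to 11.99%, 0%, 49.3% and 44.6%. Both mature samples lay above both pre-adipocyte samples, at 47.0% ± 3.30 against 5.996% ± 8.48 (SD, n = 2 each). Fold over control in the regions was 1.65 (95% interval 1.20 to 2.30), 1.85 (1.58 to 2.18) and 1.78 (1.51 to 2.10) in the 3 samples that had them, so that the intervals overlapped.

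Cyp8b1, the sterol 12-alpha-hydroxylase (chromosome 9, 121914356 to 121916305, minus strand), had no region in pre-adipocytes and 2 in each mature sample, with 251 and 216 reads. These covered 22.1% and 32.8% of its locus, on both sides of the gene and outside its body. Cyp7b1, the oxysterol 7-alpha-hydroxylase, was covered to 0%, 2.51%, 3.73% and 7.52%. Cyp39a1, the 24-hydroxycholesterol 7-alpha-hydroxylase (chromosome 17, 43667425 to 43751431, plus strand), was covered to 56.9%, 24.5%, 43.5% and 49.0% in 9, 8, 7 and 11 regions, and its flanks to 67.3%, 37.5%, 64.1% and 64.4%. Cyp27a1, the sterol 27-hydroxylase, was covered to 14.9%, 5.87%, 8.57% and 9.48%. Cyp46a1, the brain cholesterol 24-hydroxylase, had no region.

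**Figure D4:**
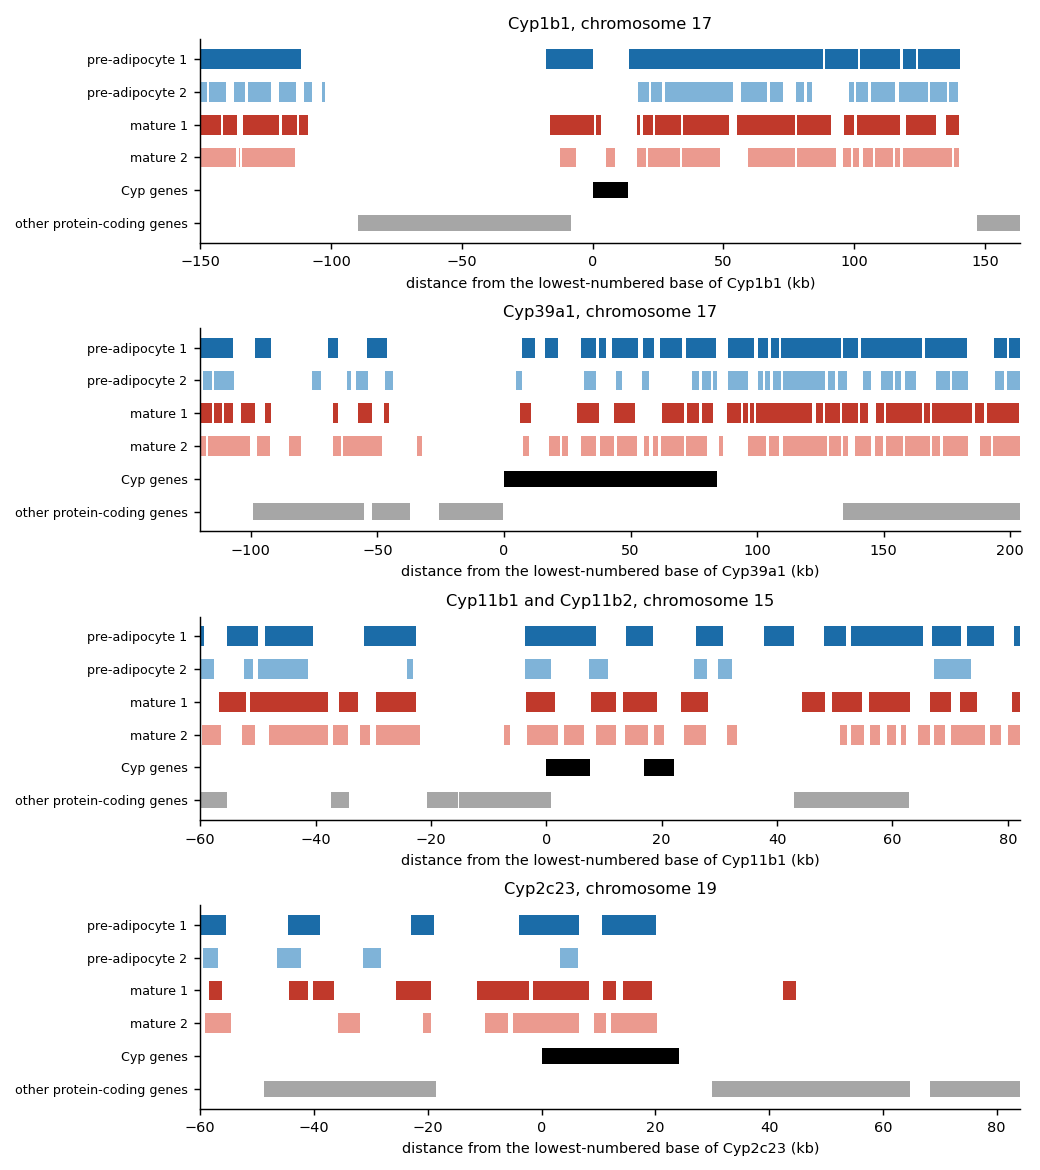
Regions of each sample (coloured bars) around Cyp1b1, Cyp39a1, the Cyp11b pair and Cyp2c23, with Cyp genes in black and other protein-coding genes in grey; the x axis is the distance in kb from the lowest-numbered base of the first gene named. Beside Cyp1b1, regions of the 4 samples together span 126.4 kb, of which 122600, 90600, 104600 and 100600 bp were called, and at Cyp2c23 regions cover more of the locus in both mature samples (56.5% and 59.2%) than in pre-adipocytes (45.7% and 7.24%).

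Of the vitamin D genes, Cyp24a1, which inactivates calcitriol, was covered to 26.2%, 5.81%, 0% and 12.5%. Cyp2r1, a 25-hydroxylase, had regions in mature replicate 2 alone, with 202 reads, and Cyp27b1, the 1-alpha-hydroxylase, had none. Of the genes that clear retinoic acid, Cyp26b1 had regions in all 4 samples, covering 18.8%, 26.4%, 3.77% and 16.9%, lower in both mature samples. Cyp26a1 and Cyp26c1, a pair on chromosome 19, shared 1 region of 41 reads in mature replicate 2. Cyp2e1, the ethanol-oxidizing enzyme of liver, had no region.

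Counted over all members, few loci separated the conditions. A region in both mature samples and in no pre-adipocyte sample was found at 2 Cyp genes, Cyp8b1 and Cyp2d9 (2.15%), against 4.86% of all genes. The reverse was found at 0 Cyp genes, against 0.913% of all genes. The covered share was higher in both mature samples than in both pre-adipocyte samples at 6 Cyp genes (6.45%), namely Cyp11b2, Cyp2d9, Cyp2c23, Cyp7b1, Cyp7a1 and Cyp8b1, against 14.6% of all genes. It was lower in both at 4 Cyp genes (4.30%), namely Cyp4f40, Cyp4f15, Cyp26b1 and Cyp4f18, against 3.51% of all genes. No test was run on these counts.

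Read density was tested in the regions present in every sample. Reads and length were counted only over the bases called in each sample, so that the density is conditional on the call. A change in called extent is divided out of it. Of 62927 regions merged over the samples, 12857 were called in all 4 and entered the quasi-likelihood test of edgeR, and 16 of these lay at Cyp loci. Cyp39a1 and the Cyp11b pair each had more than 1 of the 16. The longest at Cyp39a1, of 96.8 kb, overlapped the gene Rcan2 and not the body of Cyp39a1. None of the 16 passed an adjusted p of 0.05 (Benjamini-Hochberg over all 12857), against 0.0856% of all tested regions, and DESeq2 called none either. At an unadjusted p under 0.05 edgeR found 1 of the 16 and 9.15% of all regions, and DESeq2 found none of the 16. The log2 fold changes, mature over pre-adipocyte, ran from -0.20 to 0.21 with a median of 0.06 and a median standard error of 0.12, and 13 were above 0. Over all tested regions the median was -0.00066. The direction rested on the processing: without the correction for called length 7 of the 16 were above 0, with a median of -0.18 and a range from -1.23 to 1.15, and without pre-adipocyte replicate 1 it was 8 of the 14 regions then tested. Genes such as Cyp7a1 and Cyp8b1, which lack a region in some sample, were outside this test.

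The smallest p belonged to a region over Cyp11b1 and the neighbouring Gml2 (chromosome 15, 74830401 to 74846200). It held 418, 141, 442 and 479 reads, or 28.0, 32.9, 38.3 and 32.6 reads per kb of called length relative to library size, and the shallow pre-adipocyte replicate lay between both mature samples. The log2 fold change was 0.21 (SE 0.11, edgeR's adjusted p = 0.542). The region at Cyp3a57 had a log2 fold change of 0.14 (SE 0.11, adjusted p = 0.739), and the one at the 3' end of Cyp26b1 of 0.18 (SE 0.15, adjusted p = 0.772). The first turned to -0.23 without pre-adipocyte replicate 1 and the second to -0.94 without the correction for called length. The 3 regions below 0 were those at Cyp3a13 (log2 fold change -0.20, SE 0.21, adjusted p = 0.822), within Cyp39a1 (-0.06, SE 0.11, adjusted p = 0.908) and at Cyp2c23 (-0.03, SE 0.11, adjusted p = 0.962). The one within Cyp39a1 turned to 0.36 without the correction for called length and to 0.03 without mature replicate 2, and the one at Cyp2c23 to 0.04 without pre-adipocyte replicate 2.

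**Figure D5:**
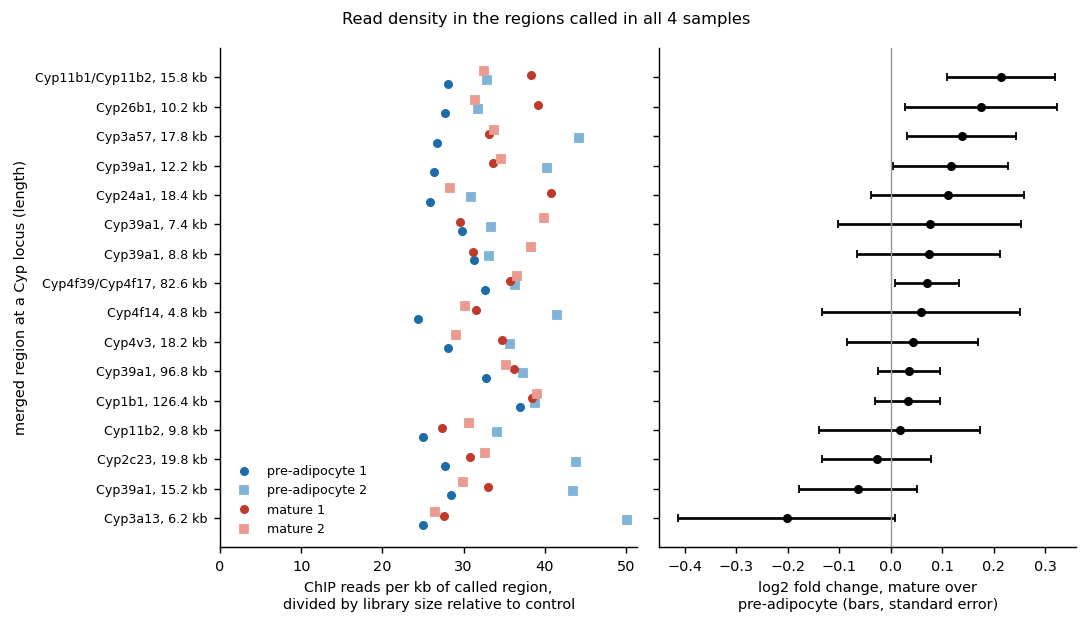
The 16 tested regions at Cyp loci, ordered by log2 fold change: left, reads per kb of called length divided by library size relative to the control in each sample; right, edgeR's log2 fold change, mature over pre-adipocyte, with its standard error. With the correction for called length all estimates lie between -0.20 and 0.21, and none passed the adjusted threshold.

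The merged region of 82.6 kb over Cyp4f39 and Cyp4f17 held 32.7, 36.4, 35.7 and 36.6 reads per kb on the same scale (log2 fold change 0.07, SE 0.06, adjusted p = 0.786). At Cyp2c23 the density differed by less than its standard error. The merged region of 19.8 kb was called over 10600, 3200, 19000 and 15800 bp, longer in both mature samples, and no error was computed for these lengths. Without the correction for called length its log2 fold change was 1.15, which also failed the threshold (edgeR's adjusted p = 0.264). The shallow pre-adipocyte replicate 2 had the shortest call, and the part of depth in it was not tested.

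The partners, regulators and relatives of the members were read from a list of 21 genes. Of these, 10 had a region in all 4 samples and 3 had none, beside 21.1% and 46.3% of all genes. The list was not tested. Por, the reductase that passes electrons to microsomal P450 enzymes, was covered to 0.90%, 0.197%, 3.99% and 0%. Hnf4a, a hepatic nuclear receptor that drives many Cyp genes, was covered to 30.1%, 12.1%, 50.8% and 44.4%. Ahr, the receptor that induces Cyp1 genes, was covered to 13.4%, 10.2%, 5.96% and 0%, and its partner Arnt had a region in pre-adipocyte replicate 1 alone. Nr1i2, the pregnane X receptor that induces Cyp3a genes, was covered to 31.9%, 13.5%, 36.7% and 20.5%.

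Tbxas1, the thromboxane synthase and a P450 by sequence with a symbol outside the rule, was covered to 72.1%, 36.0%, 61.4% and 69.7%. Ephx1, the microsomal epoxide hydrolase, had regions in both mature samples and in no pre-adipocyte sample, and Cyb5r3, the cytochrome b5 reductase, in both pre-adipocyte samples and in no mature sample. Cyp51, the lanosterol demethylase of cholesterol synthesis, had no region in any sample.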

How the data were processed

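Per the labels and the methods, single-end reads were placed on mm10 by the authors using Bowtie 1.1.2, with at most 2 mismatches and unique matches only. They then removed duplicates with Picard and called regions per sample with SICER 1.1 against the library without antibody. The deposited tables hold, for each region, raw counts of immunoprecipitated and control reads, the p-value of their difference, the fold enrichment (a ratio scaled by library size) and an FDR, itself a p-value adjusted by the authors. Region coordinates count from 0 with a closed end and are printed 1-based. The control had no table of its own, and coverage outside regions was not analysed here.

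Loci, covered bases and summed reads were computed with Python 3.11.15, numpy 2.4.6, pandas 2.3.3 and scipy 1.17.1 from GENCODE M21 genes, an overlap of 1 bp sufficing. Library size relative to the control was recovered from the scaling inside the fold enrichment. Fold enrichment over summed reads carries an exact binomial 95% interval, for counting error only, since reads carried no molecular identifiers. Samples were compared by two-sided exact permutation tests. Regions overlapping between samples were merged, and counts of those called in every sample were tested with edgeR 4.0.16 in R 4.3.3 (quasi-likelihood, TMM, offset of log called length, Benjamini-Hochberg, 0.05), with DESeq2 1.42.0 as an alternative. This step and the overlap functions were tested on simulated data. Promoter letters were searched in RefSeq windows on both strands.

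Named genes followed a rule: every cluster and pair, up to 3 genes per cluster by reads, genes called in 1 condition, single genes called in all 4 samples, 14 genes of set interest and the tested regions ranked first by adjusted p above and below 0. Members of the Cyp3a, Cyp4f and bile acid groups, Tbxas1 and the partners beyond that rule were named after their values were seen, as was the measure of shared 50-base words. The members and lists were chosen with earlier results of these data known. Alternatives covered locus extent, FDR, fold, overlap, common regions, joining distance, normalization, left-out replicates and the replicate block. Protein sequences of the members were planned and not analysed here.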

Additional observations from a re-analysis of the deposited data

How the results depend on the processing

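The 2 against 2 design and the shallow pre-adipocyte replicate 2 limit every comparison, and regions called in part of the samples were outside the read density test. No tested region at a Cyp locus was called under any alternative (0 with the replicate block, with DESeq2, with the library ratio in place of TMM, without the length offset, at an FDR of 1e-05 or less, at a fold of at least 2 and without each replicate), while calls over all regions ran from 0 to 163; the low-count filter removed no region. Deviations in read density of samples with the same replicate number correlated at 0.00775 over the tested regions. The numbers thus showed no pairing in that measure, and pairing in depth or called length was not tested. In this balanced design the replicate block leaves the mean differences of 3.5 genes, 1.58 percentage points and 0.0182 log2 unchanged by arithmetic. In edgeR the block moved the calls over all regions from 11 to 27, with none at Cyp loci.

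Over leaving out each replicate, mature minus pre-adipocyte ran from 0 to 7 genes with a region, from -0.365 to 3.53 percentage points of covered share, from -0.139 to 0.176 log2 of enrichment (-0.00852 without mature replicate 2) and from -0.119 to 1.67 percentage points for the median cluster. The genes called in mature samples alone then numbered 3 to 6, those in pre-adipocytes alone 0 to 3 and those in all samples 17 to 19, since fewer samples must share a call. At a fold of at least 2 the differences were 0 genes and -0.0377 log2, with 0 genes in mature samples alone, 1 in pre-adipocytes alone and 4 in all samples. Genes in mature samples alone numbered 1 with the gene body, 1 with 5 kb, 1 at an FDR of 1e-05 or less and 4 with regions common to both replicates, and those in pre-adipocytes alone 1 with 5 kb and 2 with common regions. The gene body gave 8 genes in all samples. The cause of these shifts was not tested.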
